A study of Homo sapiens with 6 samples.

Results

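The genes for 10 proteins that drive cells into or through mitosis, or hold them there until the chromosomes are attached, were followed here. These were CCNB1, CDC20, AURKA, AURKB, PLK1, BUB1, BUB1B, TTK, MAD2L1 and CDC25C. They were chosen by name, not by their values, though earlier results of these data were known. Every transcript whose gene identifier maps to one of these symbols was taken. The 10 genes stand among 63190 genes in the table, of which 20714 were tested, and all 10 were tested. They hold 94 of the 207167 listed transcripts, and 69 of the 94 reached a mean of at least 1 RPKM (reads scaled to the length of the transcript and the size of the library) and were tested.

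The study compared total RNA of HEK293T-Rex cells that overexpressed DIS3L2 D391N with RNA of control HEK293T-Rex cells, with 3 libraries per group. The sample labels name the line HEK293, which derives from human embryonic kidney, and its T-Rex derivative carries a tetracycline repressor that silences an integrated construct until doxycycline is added. Both groups are of this background and keep their own DIS3L2. DIS3L2 is a cytoplasmic exonuclease that digests RNA carrying untemplated uridines at its 3′ end, and D391N carries a substitution in the catalytic site. The paper states that overexpression was induced with doxycycline. The labels give the controls no construct, and the sources do not say whether they received doxycycline. All D391N libraries came from 1 line and all controls from another, so construct, line and any difference in doxycycline cannot be told apart. Nothing in the sources says that libraries of a group came from separate cultures, so that the p-values measure the spread between these libraries, which may be technical.

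Cyclin B1, the product of CCNB1, activates the kinase CDK1, and the phosphatase CDC25C removes the inhibitory phosphates that keep the complex silent until mitotic entry. PLK1, AURKA and AURKB then act on centrosomes, spindle and kinetochores, while TTK, BUB1, BUB1B and MAD2L1 form the spindle assembly checkpoint, which blocks CDC20, the activator of the anaphase-promoting complex, until every kinetochore is attached. Messenger RNA of these genes is low in G1 and high in G2 and mitosis, in good part through promoter elements named CHR and CCAAT. In RNA from a whole culture, fewer cells in G2 or mitosis and less RNA per such cell cannot be told apart.

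The depth behind the values was estimated from the posterior variances at 18.6 to 24.5 M reads in D391N libraries and 20.5 to 30.6 M reads in control libraries. At the level scaled to library size alone, times this depth, each member sum stood for at least 294 reads in every library. The inverse of the posterior variance, which also carries assignment error, gave 26.2 to 152 estimated reads for the main CDC25C isoform alone. Here and in what follows, 3 values of a group are those of its replicates 1, 2 and 3 in that order. The summed level of DIS3L2 was 369, 467 and 512 RPKM with D391N against 11.8, 12.9 and 14.6 RPKM without, so that each library matched its label. The D391N libraries were not alike. D391N replicate 1 correlated with the controls at 0.9375 to 0.9557 and with D391N replicates 2 and 3 at 0.8853 and 0.9354. D391N replicate 2 stood apart: its correlations with the controls were 0.824 to 0.865, and transcripts shorter than 200 nt took 0.342% of its reads. That share was 2.43% and 1.52% in D391N replicates 1 and 3 and 2.89% to 3.18% in the controls, so that it was lower in every D391N library, and its part in the members' values was not tested. Of 7 genes known from HEK293 cells, 6 were present at a mean of at least 1 RPKM and NEFM was below 1 RPKM in every library. KRT8, VIM and KRT18 were lower in all D391N libraries (98.6 to 114 against 168 to 180 RPKM for KRT8) and LIN28B was higher in all of them, though none passed the test. KRT8 alone passed it by RPM (reads scaled to library size alone, log2 fold change -0.66) and without D391N replicate 1 (-0.70). In that last setting 10.9% of all genes passed. The summed level of the 7 was 321 to 383 RPKM in D391N and 457 to 501 RPKM in control libraries, and its part in the members' values was not tested. Of 8 genes of other cell types 7 were found, with sums of 88.9 to 155 and 94.99 to 114 RPKM, nearly all of it the epithelial gene EPCAM. CD3E (T cells), COL1A2 (fibroblasts) and CDH5 (endothelium) were each below 1 RPKM in every library, whereas PTPRC (blood) was at 1.34 to 1.77, COL1A1 (fibroblasts) at 2.03 to 4.05 and ALB (liver) at 0.596 to 1.13 RPKM.

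The promoter sequences show what several members share that the choice by name did not use. RefSeq promoters on GRCh38.p14, from 250 bases before to 50 bases after each start site, were at hand for 8 of the 10 members, all but AURKA and TTK. The letters TTTGAA or TTCGAA on either strand, the CHR core, occurred in 6 of the 8 (CDC20, PLK1, BUB1, BUB1B, MAD2L1 and CDC25C), against 19.5% of 27305 genes with a promoter in the table. CCAAT on either strand occurred in 7 of the 8, all but BUB1B, against 39.7% of genes. The E2F letters TTTCGCGC or TTTGGCGC were in none of the 8 and in 1.40% of genes. Such matches are letters in a window and show no binding. The 100 bases before the start site are printed 5′ to 3′ on the gene's own strand for the 6 members with a match in them, with the CHR and CCAAT letters (or ATTGG, its reverse complement) in capitals.
CDC20: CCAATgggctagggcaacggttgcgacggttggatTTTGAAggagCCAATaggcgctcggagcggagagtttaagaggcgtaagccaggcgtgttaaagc
CDC25C: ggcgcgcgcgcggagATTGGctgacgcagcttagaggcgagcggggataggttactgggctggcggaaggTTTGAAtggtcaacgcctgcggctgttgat
PLK1: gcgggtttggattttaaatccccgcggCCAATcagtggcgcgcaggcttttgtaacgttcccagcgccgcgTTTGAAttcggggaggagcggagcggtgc
BUB1B: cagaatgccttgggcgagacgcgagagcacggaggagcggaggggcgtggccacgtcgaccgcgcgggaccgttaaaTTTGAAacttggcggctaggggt
CCNB1: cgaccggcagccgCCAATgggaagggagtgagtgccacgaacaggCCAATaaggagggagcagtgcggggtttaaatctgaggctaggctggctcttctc
BUB1: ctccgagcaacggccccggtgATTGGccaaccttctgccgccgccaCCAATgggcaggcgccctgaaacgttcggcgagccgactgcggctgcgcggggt

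In the CDC20 stretch (chr1:43358881-43358980, + strand) a CHR core lies at positions -65 to -60 from the start site between CCAAT boxes that begin at -100 and -55. The CDC25C stretch (chr5:138331805-138331904, - strand) belongs to 1 of its listed start sites and has a CHR core beginning at -30, and PLK1 (chr16:23678789-23678888, + strand) has one at -29. BUB1B (chr15:40160969-40161068, + strand) has a CHR core at -23 and no CCAAT. CCNB1 (chr5:69167050-69167149, + strand) has CCAAT boxes at -87 and -55 and no CHR core in these letters. BUB1 (chr2:110678064-110678163, - strand) has CCAAT boxes on opposite strands at -79 and -54, and its CHR letters, TTCGAA, begin 2 bases after the start site. Members that share these letters had values on both sides of the controls in the comparison of D391N with control libraries.

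The 10 gene sums differed widely in level. CCNB1 had the highest gene sum, 249.0 ± 27.2 RPKM over all libraries (SD, n = 6), followed by BUB1B at 224 ± 42.4 RPKM. MAD2L1 (108 RPKM), AURKB (97.4 RPKM) and PLK1 (90.5 RPKM) formed a middle range, and TTK (56.2 RPKM), BUB1 (47.7 RPKM) and AURKA (47.4 RPKM) a lower one. CDC20 was at 22.9 ± 5.46 RPKM and CDC25C at 13.8 ± 1.28 RPKM. Neighbours in this order overlapped in their ranges over the libraries, except that BUB1B lay above MAD2L1 and AURKA above CDC20 in every library, CDC20 and CDC25C overlapping at their edges. RPKM divides by transcript length, but short transcripts weigh heavily in a gene sum, and part of the order depended on this scaling. By RPM, TTK (86.3 to 150) and BUB1 (91.9 to 121) lay above PLK1 (59.98 to 83.9) in every library. AURKB, at 45.2 to 95.5 RPM, overlapped all of them. The middle and lower ranges therefore hold for RPKM only, whereas CDC20 and CDC25C were lowest by RPM as well. Of the BUB1B sum in RPKM, coding transcripts held 5.88% to 11.02%.

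**Figure D1:**
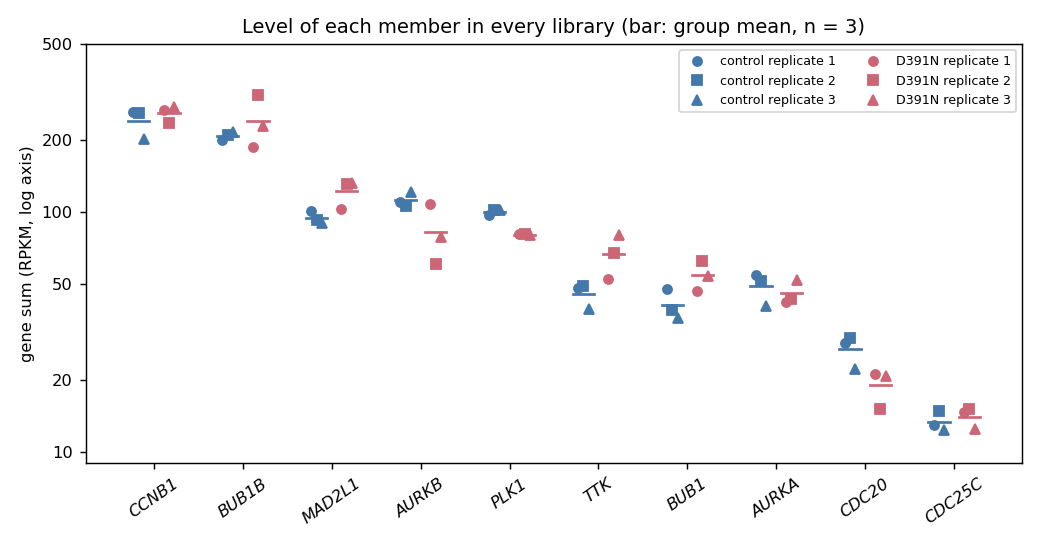
Gene sum of each member in RPKM on a log axis, by library, for control (blue) and D391N (red). Bars are group means of 3 libraries. PLK1 and CDC20 lie lower and TTK and MAD2L1 higher in every D391N library than in every control library, and the other 6 members overlap.

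None of the 10 members passed the test between D391N and control. Limma with Benjamini-Hochberg adjustment called 29 of the 20714 genes at an adjusted p under 0.05, or 0.14%, and 0 of the 10 members, whose adjusted p ranged from 0.182 to 0.827. At an unadjusted p under 0.05, 3 members passed (TTK, CDC20 and PLK1), beside 22.7% of all genes. The D391N libraries lay wholly below the controls in 2 members, CDC20 and PLK1, where 20.7% of all genes did, and wholly above in 2 members, TTK and MAD2L1, where 10.5% of all genes did. The median log2 fold change of the members was 0.088, against -0.090 over all tested genes. The 95% intervals of the 10 fold changes, each taken alone, spanned from 0.489-fold for AURKB to 2.01-fold for TTK. Median centring, which raised the median of all genes by 0.22, raised every member by as much, so that PLK1 was at -0.097, AURKB at -0.27, CDC20 at -0.28, MAD2L1 at 0.58, BUB1 at 0.62 and TTK at 0.75, and none passed.

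Among the genes of the CDK1 switch, CCNB1 (chromosome 5, 69167150 to 69178245 on GRCh38.p14) was at 266, 234 and 274 RPKM in D391N and at 261, 258 and 201 RPKM in control libraries. The groups overlapped, and control replicate 3 was the lowest library. The log2 fold change was 0.11 (SE 0.18, limma adjusted p = 0.758), and it was -0.015 without control replicate 3 and -0.23 with coding transcripts alone. CDC25C (chromosome 5, 138285265 to 138338355) was at 14.7, 15.1 and 12.4 RPKM in D391N and at 13.02, 14.9 and 12.4 RPKM in control libraries, in nearly the same range in both groups. Its log2 fold change was 0.067, with a 95% interval from -0.30 to 0.43, and it was -0.0086 with array weights. CDK1, the kinase partner of cyclin B1, was at 163, 283 and 256 RPKM against 221, 183 and 191 RPKM, which also overlapped, and the ratio of CCNB1 to CDK1 was 0.935-fold that of the controls (two-sided exact permutation p = 0.9).

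The Polo and Aurora kinases had lower or level values in D391N. PLK1, the Polo kinase of mitotic entry and centrosome maturation (chromosome 16, 23678889 to 23690367), was at 81.2, 80.8 and 79.8 RPKM in D391N and at 97.4, 101.9 and 101.8 RPKM in control libraries. The D391N libraries were all lower and close to each other. The log2 fold change was -0.32 (SE 0.13, 95% interval -0.62 to -0.013, limma adjusted p = 0.208). The value moved in both directions with the processing. It was -0.097 with median centring (adjusted p = 0.729). By RPM, a sum chosen after seeing the data that gives long transcripts their full weight, it was -0.45 (adjusted p = 0.063), and with coding transcripts alone -1.37 (adjusted p = 0.072).

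AURKB, the kinase of the chromosomal passenger complex that corrects wrong attachments (chromosome 17, 8204731 to 8210575), was at 108, 60.6 and 78.4 RPKM in D391N and at 110, 106 and 121 RPKM in control libraries. D391N replicate 1 lay within the control range and the other D391N libraries below it. Its log2 fold change was -0.49 (SE 0.23, limma adjusted p = 0.256), with -0.70 without D391N replicate 1 (adjusted p = 0.053) and -0.29 without D391N replicate 2 (adjusted p = 0.425). INCENP, the scaffold of the same complex, was at 45.8 to 55.3 RPKM in D391N and 51.0 to 59.0 RPKM in control libraries. The ratio of AURKB to INCENP was 1.96, 1.10 and 1.71 in D391N and 2.10, 2.08 and 2.06 in control libraries, without overlap but with the D391N libraries far more spread. The fold of the ratio was 0.743, with a two-sided exact permutation p of 0.10, the smallest that 3 against 3 libraries allow, and 0.25 after adjustment over 5 ratios.

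AURKA, the spindle-pole Aurora kinase (chromosome 20, 56369390 to 56392215), was at 42.1, 43.3 and 52.3 RPKM in D391N and at 54.7, 51.7 and 40.6 RPKM in control libraries, with full overlap. The log2 fold change was -0.088 (95% interval -0.50 to 0.33), and median centring, which moved the median of all genes by 0.22, turned it to 0.13. TPX2, which activates AURKA on the spindle, had a log2 fold change of 0.27 (limma adjusted p = 0.383), and the ratio of AURKA to TPX2 was 0.782-fold that of the controls with overlapping groups (exact permutation p = 0.2).

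Among the checkpoint genes, TTK and MAD2L1 were higher in every D391N library, and BUB1 and BUB1B overlapped. TTK, the kinase that starts checkpoint signalling at unattached kinetochores (chromosome 6, 80004649 to 80042527), was at 52.6, 67.7 and 80.0 RPKM in D391N and at 48.3, 49.0 and 39.3 RPKM in control libraries. All D391N libraries were higher, D391N replicate 1 by the smallest margin. The log2 fold change was 0.54 (SE 0.20, 95% interval 0.066 to 1.01, limma adjusted p = 0.182), and it was 0.70 without D391N replicate 1 (adjusted p = 0.054). In RPM, however, TTK was at 120, 100.3 and 150 in D391N and at 111, 106 and 86.3 in control libraries, which overlapped, and the log2 fold change was 0.28 (adjusted p = 0.356).

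BUB1, the kinase that marks centromeric chromatin and recruits other checkpoint proteins (chromosome 2, 110637528 to 110678063), was at 46.9, 62.4 and 54.0 RPKM in D391N and at 47.7, 39.2 and 36.3 RPKM in control libraries. Only D391N replicate 1 and control replicate 1 overlapped, and the log2 fold change was 0.41 (95% interval -0.012 to 0.82, limma adjusted p = 0.229). In RPM the BUB1 value was 0.11 (adjusted p = 0.636), and with coding transcripts alone it turned to -0.098.

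BUB1B, which encodes the checkpoint protein BUBR1 (chromosome 15, 40161069 to 40221123), was at 187, 306 and 227 RPKM in D391N and at 200, 209 and 215 RPKM in control libraries. D391N replicate 2 alone was far above the rest. The log2 fold change of 0.18 (limma adjusted p = 0.658) was -0.011 without that library and -0.17 with coding transcripts alone. MAD2L1, which encodes the MAD2 protein that binds CDC20 (chromosome 4, 120055623 to 120066848), was at 103, 131 and 132 RPKM in D391N and at 101, 92.7 and 90.0 RPKM in control libraries. The groups did not overlap, though D391N replicate 1 and control replicate 1 lay close together, and the log2 fold change was 0.36 (95% interval -0.024 to 0.74, limma adjusted p = 0.239). In RPM, MAD2L1 was at 144, 180.1 and 183 in D391N and at 145, 134 and 128 in control libraries, which overlapped, and the log2 fold change was 0.31 (adjusted p = 0.203). The pseudogene MAD2L1P1, which can share reads with MAD2L1, was at 5.08, 13.4 and 6.37 RPKM in D391N and at 1.60, 2.06 and 4.86 RPKM in control libraries, and its part in the MAD2L1 value was not tested.

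CDC20, the target of the checkpoint (chromosome 1, 43358981 to 43363203), was at 21.1, 15.1 and 20.8 RPKM in D391N and at 28.5, 29.9 and 22.2 RPKM in control libraries. Every D391N library was lower, with D391N replicate 2 lowest. The log2 fold change was -0.50 (SE 0.20, 95% interval -0.97 to -0.028, limma adjusted p = 0.202). The ratio of the MAD2L1 gene sum to that of CDC20 was 4.88, 8.65 and 6.35 in D391N and 3.54, 3.10 and 4.05 in control libraries. It was higher in every D391N library, by 1.82-fold on average, with a two-sided exact permutation p of 0.10, the smallest this design allows, and 0.25 after adjustment over the 5 ratios. The ratio of BUB1B to CDC20 was 1.60-fold that of the controls and overlapped (exact permutation p = 0.2).

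**Figure D2:**
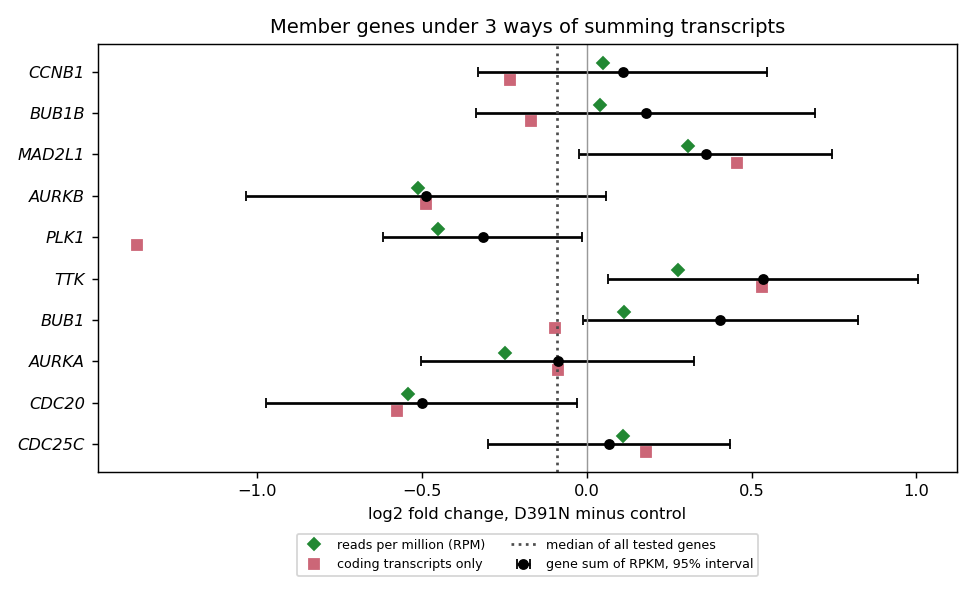
Log2 fold change of each member (D391N minus control, n = 3 per group) from the gene sum of RPKM with its 95% interval (black), from RPM (green) and from coding transcripts alone (red). The dotted line is the median of all tested genes, -0.090. PLK1 with coding transcripts alone stands at -1.37, and CCNB1, BUB1 and BUB1B change sign between the sums.

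Log2 fold changes of the tested member transcripts ran from -2.99 to 3.90, whereas those of the gene sums ran from -0.50 to 0.54. Both ends of the transcript range rest in part on under 3 estimated reads. Limma called 33 of 54671 transcripts at an adjusted p under 0.05 (0.0604%) and 0 of the 69 member transcripts, of which 11 passed an unadjusted p under 0.05 (5 higher, 6 lower in D391N), beside 17.6% of all transcripts. D391N lay wholly below the controls in 10 of the 69, or 14.5%, against 15.6% of all transcripts, and wholly above in 4, or 5.80%, against 10.1%. In 7 of the 69 the mean of 1 group was under 1 RPKM, so that they were tested only because of the other group, and 4 of these 7 are among the 14 without overlap. The estimation program divides reads that match several isoforms among them, so that values of isoforms of 1 gene depend on each other. The transcripts other than the main isoform were singled out after their values were seen.

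CDC25C was divided between isoforms differently in the groups while its gene sum was level. Its main isoform, the coding ENST00000503022, was at 10.4, 10.5 and 8.14 RPKM in D391N and at 5.79, 5.95 and 4.82 RPKM in control libraries, higher in all D391N libraries (log2 fold change 0.79, SE 0.24, limma adjusted p = 0.196). It made up 70.8%, 69.4% and 65.4% of the gene sum in D391N and 44.5%, 39.9% and 39.0% in control libraries. The coding ENST00000514017 was lower in all D391N libraries, at 0.363 to 1.54 RPKM against 1.59 to 3.27 RPKM, on as few as 0.799 estimated reads, and it reached the filter only through the controls. The difference in the main isoform's share was 27.4 percentage points, and leaving out any 1 library kept it between 26.3 and 29.1 points.

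AURKA, level as a gene, was divided in another way in the 2 groups. The coding ENST00000395907 was at 5.41, 2.98 and 4.56 RPKM in D391N and at 16.9, 19.1 and 8.84 RPKM in control libraries (log2 fold change -1.73, SE 0.39, limma adjusted p = 0.136). The coding ENST00000441357 was at 14.6, 22.5 and 30.4 RPKM in D391N and at 9.998, 10.4 and 12.3 RPKM in control libraries (log2 fold change 0.99, adjusted p = 0.209). Neither overlapped between groups. By mean level ENST00000441357 was the main isoform over all libraries and in D391N. ENST00000395907 was the larger one in the control mean, though not in control replicate 3. ENST00000441357 is therefore given by its share as a description, without a test. It held 48.3% ± 12.1 of the gene sum in D391N and 22.9% ± 6.5 in control libraries (SD, n = 3). Without D391N replicate 1, a setting in which 10.9% of all genes passed at the gene level, both transcripts passed the test, at -1.92 and 1.26.

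In PLK1 the coding transcripts had lower values and a transcript without a coding sequence higher ones. The coding ENST00000300093, 2160 nt long, was at 3.86, 2.01 and 5.52 RPKM in D391N and at 13.4, 11.8 and 8.95 RPKM in control libraries, all D391N libraries lower (log2 fold change -1.65, SE 0.40, limma adjusted p = 0.152). The main isoform by RPKM, ENST00000568568, is a coding model of 582 nt and was at 42.4, 12.3 and 30.0 RPKM against 60.3, 61.5 and 65.7 RPKM (log2 fold change -1.32, adjusted p = 0.227). Against these, ENST00000564202, a transcript of 584 nt with no defined coding sequence, was at 8.30, 37.3 and 22.3 RPKM in D391N and 4.99, 10.03 and 6.24 RPKM in control libraries (log2 fold change 1.48, adjusted p = 0.259). D391N replicate 2 was the most extreme library in each of the 3 transcripts. The share of the main isoform was 34.98% ± 18.6 in D391N and 62.3% ± 2.1 in control libraries, without overlap.

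In CCNB1 a transcript annotated for nonsense-mediated decay, ENST00000503507, was at 39.7, 74.4 and 62.1 RPKM in D391N and at 18.2, 1.88 and 1.42 RPKM in control libraries. All D391N libraries were higher, and control replicate 1 was well above the other controls (log2 fold change 3.90, SE 0.92, limma adjusted p = 0.144). The lowest 2 control values rest on 1.63 and 0.633 estimated reads, so that the size of the fold is poorly determined. The main coding isoform, ENST00000506572, overlapped at 85.1 to 93.0 against 76.2 to 112 RPKM. TTK also had a decay-annotated transcript with higher values, ENST00000509313, at 4.09, 2.79 and 3.44 RPKM in D391N and 0.761, 0.817 and 0.265 RPKM in control libraries on as few as 0.672 estimated reads, whereas the decay-annotated ENST00000559733 of BUB1B was lower in all D391N libraries (27.1 to 39.6 against 44.9 to 54.1 RPKM). The coding ENST00000585124 of AURKB was at 0.318, 0.741 and 0.537 RPKM in D391N and 8.13, 2.41 and 5.34 RPKM in control libraries, on as few as 0.611 estimated reads in D391N and 1.29 in control libraries. This AURKB transcript and ENST00000509313 of TTK reached the filter only through the group in which they are high, and their values are a description.

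**Figure D3:**
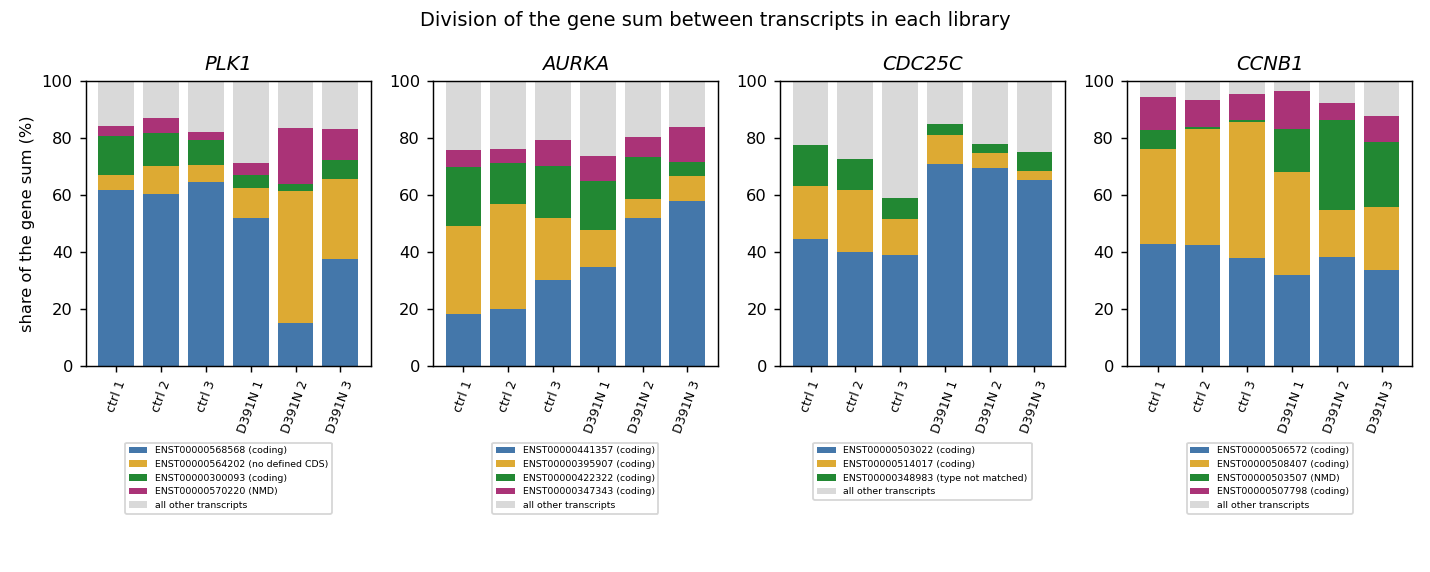
Share of the gene sum (%) held by the main transcripts of PLK1, AURKA, CDC25C and CCNB1 in each control and D391N library, with transcript type in the legend (NMD, nonsense-mediated decay; CDS, coding sequence). The largest CDC25C transcript holds 39.0% to 44.5% in control and 65.4% to 70.8% in D391N libraries.

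Over all 10 members, the share of the main isoform did not overlap between the groups in 4: it was higher in D391N in AURKA and CDC25C and lower in PLK1 and BUB1. Of 14174 genes with at least 2 transcripts, the share of the main isoform lay wholly higher in 11.9% and wholly lower in 10.2%. For CDC25C, PLK1 and BUB1, whose main isoform was the same in both groups, the two-sided exact permutation p was 0.10, the smallest possible, or 0.25 after adjustment over the 10 shares. In BUB1 the main isoform ENST00000302759 held 45.0%, 27.4% and 40.5% in D391N and 46.7%, 59.8% and 49.0% in control libraries, although its own level hardly differed (20.01 ± 2.57 against 21.2 ± 3.01 RPKM, SD, n = 3). Of MAD2L1, ENST00000333047, annotated for decay, was the main isoform at 25.5% to 61.5% in D391N and 53.5% to 64.6% in control libraries, the lowest share again in D391N replicate 2.

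The main isoforms of the other members overlapped in share. That of CDC20, the coding ENST00000310955, held 77.0% to 92.8% of the sum and was itself at 17.4, 11.6 and 19.3 RPKM in D391N and 25.02, 27.3 and 20.6 RPKM in control libraries, so that it was lower in every D391N library (log2 fold change -0.62, SE 0.28, limma adjusted p = 0.310). That of TTK, the coding ENST00000369798 of 2966 nt, was at 36.1, 24.7 and 41.9 RPKM in D391N and 32.8, 30.9 and 24.999 RPKM in control libraries, without the separation that the gene sum showed. The higher sum of TTK in D391N replicates 2 and 3 included a coding model of 569 nt, ENST00000504040, at 1.82, 26.1 and 11.7 RPKM against at most 4.17 RPKM in control libraries. AURKB was mostly the coding ENST00000581511 of 742 nt, at 68.6, 28.7 and 44.6 RPKM in D391N and 60.4, 55.3 and 74.2 RPKM in control libraries, which overlapped through D391N replicate 1.

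Of the member transcripts tested, 20 were retained-intron models, RNA that keeps an intron. All 20 overlapped between the groups, 10 with a value above 0 and 10 below, and none had an unadjusted p under 0.05 by limma. D391N replicate 2 was the highest library in 6 and the lowest in 5. The 3 described next were picked for their high values in that library. In BUB1B, the retained-intron ENST00000559772 of 560 nt was the main isoform, at 39.9, 126 and 98.3 RPKM in D391N and 42.0, 54.2 and 56.0 RPKM in control libraries. In BUB1, ENST00000468927 of 714 nt was at 5.23, 31.7 and 16.1 RPKM in D391N and 4.79 to 7.85 RPKM in control libraries, and in MAD2L1, ENST00000511295 of 528 nt was at 3.94, 27.5 and 9.22 RPKM against 3.92 to 5.17 RPKM. In all 3, D391N replicate 1 lay below the highest control, and limma's adjusted p was 0.370 or more. The coding ENST00000296509 of MAD2L1, 5227 nt long, was at 8.27, 16.9 and 11.9 RPKM in D391N and 9.03, 8.10 and 8.72 RPKM in control libraries, and held 8.03% to 12.9% of the gene sum.

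Summing coding transcripts against all others was a comparison chosen after seeing the data. The coding share could be formed for 9 members, all but AURKA, and for 10667 genes. In CCNB1 it was 84.1%, 67.3% and 76.7% in D391N and 91.8%, 98.0% and 98.6% in control libraries. In PLK1 it was 63.1%, 18.0% and 45.5% against 80.8%, 73.7% and 77.6%, and in BUB1 54.3%, 32.3% and 47.5% against 57.0%, 67.8% and 61.7%. All 3 lay wholly lower in D391N, each with D391N replicate 2 at the bottom, and 0 members lay wholly higher, against 13.2% of genes lower and 8.43% higher. The median difference was -2.02 percentage points over the members and -0.871 over all genes. TTK (74.1% against 74.3%) and AURKB (78.2% against 78.3%) had nearly equal means.

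The wider mitotic machinery was read from 7 lists of 128 genes, of which 127 were tested and 0 passed limma's adjusted p, the lowest being 0.061. At an unadjusted p under 0.05, 23 were higher and 18 lower in D391N, beside 22.7% of all genes in either direction. In 31 (24.4%) the D391N libraries lay wholly above the controls and in 19 (15.0%) wholly below, beside 10.5% and 20.7% of all genes, and the median log2 fold change was 0.11. Genes of these lists with outlying values were singled out after seeing them. Counts at this unadjusted p in the single lists below stand beside the same 22.7%, which was not split by direction.

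Spindle motors and cytokinesis genes had the highest median, 0.39 over 23 genes, and 18 of the 23 had a value above 0. At an unadjusted p under 0.05, 9 were higher and 2 lower, and without D391N replicate 1, 8 passed the adjusted test, a setting in which 10.9% of all genes did. No other left-out library gave a call in this list. KIF20B, a kinesin of late mitosis, was at 64.6, 90.0 and 73.0 RPKM in D391N and 43.2, 45.1 and 44.6 RPKM in control libraries (log2 fold change 0.76, SE 0.16, limma adjusted p = 0.093). The 23 kinetochore genes had a median of 0.26, with 4 higher and 4 lower at an unadjusted p under 0.05, and by RPM the median was 0.012. KNL1, the kinetochore scaffold on which BUB1 and BUB1B assemble, was at 83.9, 151 and 102 RPKM against 47.8 to 55.7 RPKM (log2 fold change 1.06, SE 0.23, adjusted p = 0.097). CENPI, of the inner kinetochore, was at 5.02, 3.79 and 4.95 RPKM against 9.31, 9.14 and 7.10 RPKM, wholly lower in D391N.

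Subunits and regulators of the anaphase-promoting complex, listed with its substrate PTTG1 and the separase gene ESPL1, went both ways. The median over the 20 genes was -0.067, with 2 higher and 5 lower at an unadjusted p under 0.05. ANAPC11, the RING subunit of the complex, was at 5.76, 4.03 and 6.64 RPKM in D391N and 15.2, 14.4 and 14.0 RPKM in control libraries. This gave the lowest adjusted p of the lists (log2 fold change -1.42, SE 0.21, limma adjusted p = 0.061). FZR1, the G1 activator that takes over from CDC20, was wholly lower as well, at 8.98, 5.36 and 9.83 against 13.1, 14.5 and 14.7 RPKM (log2 fold change -0.84, adjusted p = 0.134). The 11 other checkpoint genes had a median of -0.019, with 3 higher and 0 lower at that threshold. BUB3, the partner of BUB1 and BUBR1, had a log2 fold change of -0.37 (adjusted p = 0.453) and MAD1L1, which seats MAD2 at kinetochores, one of -0.34 (adjusted p = 0.586), both with overlapping groups.

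The remaining genes of the CDK1 switch had a median of 0.036, with 1 of 16 higher and 4 lower at an unadjusted p under 0.05, and the partners of the kinases one of 0.089, with 2 higher and 2 lower of 20. By RPM these medians were -0.0047 and -0.045. PKMYT1, a kinase that inhibits CDK1, was at 6.59, 4.67 and 6.08 RPKM in D391N and 12.2, 11.5 and 8.04 RPKM in control libraries. Among regulators of G2 and mitotic transcription (median 0.047, 14 genes), FOXM1 had a log2 fold change of 0.032 (limma adjusted p = 0.927), whereas MYBL2, the B-MYB factor that acts at CHR promoters, was at 48.6, 41.4 and 52.9 RPKM in D391N and 72.8, 68.4 and 73.7 RPKM in control libraries (log2 fold change -0.59, SE 0.15, adjusted p = 0.110). For comparison, 22 S phase genes had a median of 0.054, with 3 higher and 2 lower at an unadjusted p under 0.05. A list of CDK inhibitors and p53 targets, which also holds CCND1 (cyclin D1, neither of these), had a median of -0.24. Of its 11 tested genes 1 was higher and 3 were lower at that threshold. By RPM the median was -0.0086 for the transcription regulators and -0.0014 for the S phase genes, and median centring raised all of these medians by about as much as that of all genes.

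**Figure D4:**
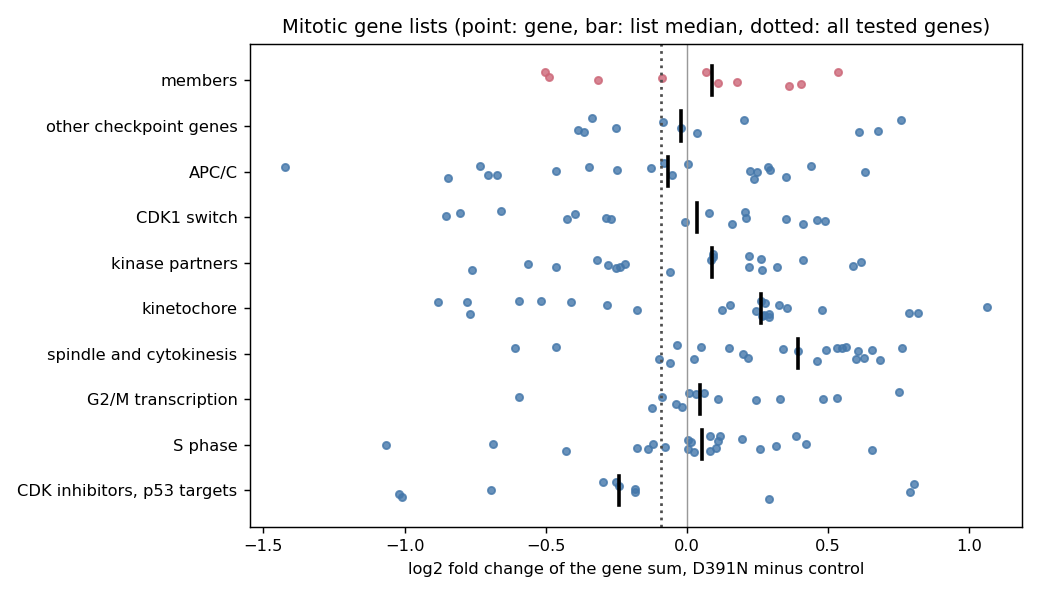
Log2 fold change of the gene sum (D391N minus control) for each tested gene of the members (red) and 9 comparison lists (blue). Bars mark list medians, and the dotted line is the median of all tested genes. List medians run from -0.24 for the list labelled CDK inhibitors and p53 targets, which also holds CCND1, to 0.39 for spindle and cytokinesis genes.

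The members did not follow 1 profile across libraries. Each member's correlation with the mean of the other 9 over 6 libraries ran from -0.72 for AURKB to 0.78 for AURKA, and was 0.75 for CCNB1 and -0.48 for PLK1. The mean centred profile was lowest in control replicate 3, at -0.13 on the log2 scale, and highest in D391N replicate 3, at 0.071. Of 11826 other genes with a mean of at least 5 RPKM, those most like this profile were PM20D2 and DRG1 (both r = 0.988), MMS22L (r = 0.985), TDG (r = 0.983) and ZNG1B (r = 0.977). These correlations describe 6 libraries that share depth and condition and carry no test.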

How the data were processed

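RNA-seq of 3 D391N and 3 control libraries was used. The authors trimmed reads of rRNA-depleted RNA, used Segemehl against the Ensembl GRCh38 transcriptome (coding and non-coding), and ran BitSeq for levels. Tool versions are not given in the sources used here. They deposited, for each transcript and library, the natural log of RPKM (posterior mean) and a score, its posterior variance. The authors placed 3 libraries in a lane without naming them. Whether lane and condition coincide is therefore not known and could not be tested.

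Natural logs were exponentiated and transcripts summed per gene. Log2(RPKM + 0.1) of features with a mean of at least 1 RPKM was compared by limma 3.58.1 (empirical Bayes with trend, R 4.3.3) with Benjamini-Hochberg adjustment, and fold changes are on that scale, which understates those of low features. Ratios and isoform shares had two-sided exact permutation tests over 20 arrangements. Reads behind a transcript value were taken as the inverse of its posterior variance, and depth from genes with 1 transcript, which covers counting and assignment error only. Reads behind a gene sum were its level in RPM times that depth. Symbols were found for 88.2% of gene identifiers, and lengths and types for 90.2% of transcripts from a GENCODE annotation by identifier. Positions and promoters are RefSeq GRCh38.p14. On simulated gene-level data of 20714 genes, 20% of genes raised by 1 on the log2 scale and 70% of those raised by 2 were called. Of genes lowered by 2, 54% were called, and there were 2 false calls. The simulated spread was independent between genes, without deviations shared within a library.

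Members, lists and tests were chosen with earlier results of these data known. Named were the members, their main isoforms, DIS3L2, CDK1, BUB3, MAD1L1, FZR1, TPX2, INCENP, FOXM1, MYBL2, any listed gene or member transcript past the threshold, and the 5 genes most like the mean profile. Other names were chosen after their values were seen. Alternatives were other pseudocounts, filters, scalings, array weights, no trend, a replicate block and each library left out. Sums in RPM (reads scaled to library size alone) and over coding transcripts alone were added after seeing the data. Python 3.11.15 with pandas 2.3.3, numpy 2.4.6, scipy 1.17.1 and matplotlib 3.10.9 was used.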

Additional observations from a re-analysis of the deposited data

How the results depend on the processing

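No member gene passed the test under any of the 19 alternatives run. CDC20, AURKB and PLK1 kept a value below 0, and TTK and MAD2L1 a value above 0, under all of them. Log2 fold changes that turned were AURKA with median centring (0.13), CDC25C with array weights (-0.0086), BUB1B without D391N replicate 2 (with 1 library left out, -0.011 to 0.34), CCNB1 without control replicate 3 (-0.015 to 0.18), and, with coding transcripts alone, CCNB1 (-0.23), BUB1 (-0.098) and BUB1B (-0.17). Among the transcripts, MAD2L1 ENST00000333047 (-0.30 to 0.23) and BUB1 ENST00000302759 (-0.20 to 0.030) turned without D391N replicate 2. The cause was not tested.

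The number of genes called was 61 with a pseudocount of 1 and 16 with 0.01, 18 with no filter and 6 with a mean of at least 5 RPKM, 14 with median centring, 17 with quantile normalization, 71 with array weights, 19 over transcripts of at least 1 RPKM, 646 by RPM and 593 over coding transcripts alone. Leaving out 1 library gave 2 to 2261 genes, the highest without D391N replicate 1. The number of transcripts called was 142 with a pseudocount of 1, 18 with no filter, 17 with a mean of at least 5 RPKM, 52 without trend and 54 with array weights, and 2 to 4961 with 1 library left out. Of the 69 member transcripts, 0 to 8 were called with 1 library left out, the 8 without D391N replicate 1. These stand beside up to 4961 called of all 54671 transcripts with 1 library left out, and are not read as particular to the members. In the lists, leaving out 1 library gave 0 to 2 called genes for other checkpoint genes, the anaphase-promoting complex, kinase partners and S phase. It gave 0 to 3 for the CDK1 switch, 0 to 5 for the kinetochore and 0 to 8 for spindle and cytokinesis. For G2 and mitotic transcription, and for the list of inhibitors, p53 targets and CCND1, it gave 0 to 1. By RPM 1 gene was called in each of the anaphase-promoting complex, kinetochore and spindle lists, beside KRT8 of the HEK293 markers. With fewer libraries the spread is estimated from fewer values, and the counts say nothing of which genes were shared.

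Libraries that share a number deviated from their group means with correlations of 0.070, 0.22 and -0.11, and not every library correlated best with its own number, so that the numbers do not pair the libraries. A replicate block gave 2 called genes, 7 called transcripts and 0 called members. Values on under 3 estimated reads, 62.3% to 69.7% of transcripts in a library, have large counting errors, and fold changes against them are poorly determined.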
